A study of Mus musculus with 2 samples.

Results

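The cells described here are collagen-producing stromal cells of the mouse colon in which several of 7 genes, Cd36, Hcar2, Agt, Tbxas1, Prdm1, Spock3 and Tcim, were detected together. A cell was a member if it had 500 or more genes, 10% or less of its UMIs from mitochondrial genes, a UMI of 3 or more of these 7 genes, at least 10 UMIs of Col1a1, Col1a2 and Col3a1 together, and no UMI of the endothelial gene Pecam1. Members numbered 866 of 20007 barcodes and of 19463 cells that passed the filter, 74 in the Cre library and 792 in the control library. They are set against the other collagen-positive cells, which met every part of the rule except the 7 genes, 5523 in the Cre library and 7863 in the control library.

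The first library came from colons of mice with floxed Il10ra alleles and Pdgfra-Cre, named Il10ra_ff_Pdgfra_cre in the labels and Cre here. The second came from mice with the floxed alleles alone, named Il10ra_ff and control here. Both genotypes are described as 2 animals aged 6 months whose whole colons were taken, and each gave 1 library, so the animals cannot be told apart and no difference between genotypes has a replicate check. Living cells had been sorted for Podoplanin and against CD45, CD31 and EpCAM, which removes leukocytes, endothelium and epithelium. Pdgfra drives the Cre in cells of the fibroblast lineage, and smooth muscle, which shares the sort, need not carry the deletion. No p-value was computed for cells against cells or library against library, and every interval below is a 95% interval that covers counting error only.

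Fibroblasts of the colonic lamina propria lie under the crypts and between them, where they lay down matrix and send growth factors, WNT and BMP ligands and prostaglandins to the epithelium. The genes of the rule have known roles in sensing lipids and metabolites, in vascular tone and in transcription. Cd36 encodes a receptor that takes up long-chain fatty acids, and Hcar2 a receptor for butyrate, niacin and a ketone body. Agt encodes angiotensinogen, the precursor of the angiotensins, and Tbxas1 the synthase of thromboxane. Prdm1 encodes the transcriptional repressor Blimp-1, Spock3 a matrix proteoglycan and Tcim a small regulator of transcription.

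Facts of the libraries bear on the members as follows. The Cre library held 66845139 UMIs in 8627 barcodes and the control library 76570611 UMIs in 11380 barcodes. Members were deeper than the other collagen-positive cells, with a median of 10514.5 UMIs against 8696 in the Cre library and 10709 against 7054 in the control library. Their median mitochondrial share was 1.37% against 1.23% in the Cre library and 1.13% against 1.24% in the control library. The libraries shared 115 barcodes, of which 2 were members in the Cre library, 6 were members in the control library and 0 were members in both. Il10ra, the targeted gene, had 1 UMI in the Cre members and 3 in the other Cre cells, against 1 in the control members and 0 in the other control cells, where a floor of 3 counts allows up to 0.0516 CPM (UMIs per 1000000 UMIs of the summed cells). These counts do not check the deletion. Il10rb, the partner chain of the receptor, was at 70.0 CPM (53.2 to 90.5) in Cre members and 38.3 CPM (34.3 to 42.6) in control members.

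Members made up 1.32% (1.04 to 1.66) of 5597 collagen-positive cells in the Cre library and 9.15% (8.55 to 9.78) of 8655 in the control library. The Cre share was 0.144 times the control share (0.112 to 0.184), a log2 ratio of -2.79. The rule asks for transcripts of 7 genes, so fewer cells of this kind and less of these transcripts per cell cannot be told apart. When each cell was thinned to 4000 UMIs, the shares were 0.420% in the Cre library and 5.88% in the control library. Median depth was 10514.5 UMIs in Cre members and 10709 in control members, and its part in the difference was not tested beyond this thinning.

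The distance between the libraries grew with the number of rule genes asked for. With exactly 3 detected there were 54 Cre cells and 338 control cells, with 4 there were 13 and 200, with 5 there were 6 and 156, and with 6 there was 1 Cre cell against 92 control cells. All 7 were detected in 0 Cre cells and 6 control cells. Just outside the rule, 231 Cre cells and 677 control cells held 2 of the genes. At the collagen threshold, 8 Cre cells and 11 control cells with at least 3 rule genes held 10 or 11 collagen UMIs, and 4 Cre cells and 9 control cells held 8 or 9 and were left out.

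**Figure D1:**
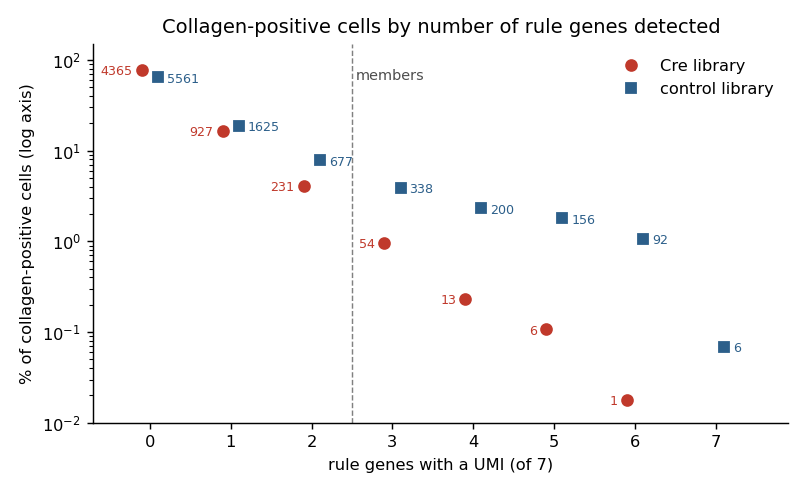
Share of collagen-positive cells, in percent on a log axis, by how many of the 7 rule genes had a UMI, in the Cre library (circles) and the control library (squares), with the number of cells beside each point. Right of the dashed line lie the 74 Cre members and the 792 control members, and the points of the libraries move apart from 3 to 6 detected genes.

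The rule genes themselves chose the cells, and their values are given as a description. Cd36 was at 77.3 CPM in Cre members and 0.592 CPM in the other Cre cells, and at 315 CPM in control members and 4.80 CPM in the other control cells. A UMI of Cd36 was seen in 27.0% of Cre members (17.4 to 38.6) and 59.8% of control members (56.3 to 63.3). Tbxas1 was found in 24.3% of Cre members (15.1 to 35.7) and 61.0% of control members (57.5 to 64.4). Both shares were lower in the Cre members.

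Spock3 ran the other way, with a UMI in 52.7% of Cre members (40.7 to 64.4) and 30.05% of control members (26.9 to 33.4). Agt was seen in 63.5% and Tcim in 67.6% of Cre members, against 67.05% and 70.3% of control members. Prdm1 was seen in 56.8% of Cre members and 57.1% of control members. Hcar2 was seen in 45.9% of Cre members (34.3 to 57.9) and 57.2% of control members (53.7 to 60.7). Enteric glia, which should lack these genes and which show what free RNA adds, had each of the 7 in at most 2.63% of 114 Cre cells and 1.47% of 68 control cells, and none had 3 of them. Their median depths were 5512.5 UMIs in the Cre library and 4541.5 in the control library, below those of the members.

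The genes were found together in the same cells. The 7 genes were chosen with earlier results of these data known, so the values below describe the rule and are no independent support for it. Among control cells with at least 3 of the other 6 genes, Cd36 was at 301 CPM, against 12.6 CPM in the remaining collagen-positive control cells, a ratio of 23.8 (21.9 to 25.9). Of the control cells with a UMI of Cd36, 60.1% also had Tbxas1 and 52.1% Hcar2, against 9.75% and 10.4% of all collagen-positive control cells. Prdm1 gave a ratio of 11.4 and Tbxas1 one of 9.63 in the same way. Spock3 was the weakest of the 7, at 38.1 CPM against 15.1 CPM, a ratio of 2.53 (2.21 to 2.89). In the Cre library Cd36 was at 67.7 CPM in 66 such cells and 0.867 CPM in the rest, a ratio of 78.1 (51.02 to 119.8).

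The name lamina propria fibroblast was checked against marker genes. In control members the summed level of 6 lamina propria markers was 4602 CPM, against 1774 CPM in the other control cells. Of these, Adamdec1, a secreted metalloprotease, was at 3372 against 940 CPM, and Tnc, which encodes the matrix protein tenascin C, at 331 against 104 CPM. Stmn2, a microtubule regulator, was at 465 against 288 CPM. Edil3, at 327 against 299 CPM, was close to level, and Frmpd4 went against the name, at 19.6 CPM in control members and 136 CPM in the other control cells. The 6 markers of adventitial fibroblasts and trophocytes summed to 632 against 1429 CPM, and the 6 of subepithelial PDGFRA-high fibroblasts to 738 against 741 CPM. At least 3 of these PDGFRA-high markers were found in 52.5% of control members, the deeper cells, and 20.4% of the other control cells. For the lamina propria markers those shares were 71.2% and 38.0%. Nrg1, the marker of subepithelial Nrg1-high fibroblasts, also went against the name, at 487 against 47.2 CPM. The 9 macrophage markers, given because macrophages carry Cd36, summed to 8.45 CPM in Cre members with 8 of 9 at 0, and to 19.4 CPM in control members against 14.6 CPM in the other control cells. The 4 adipocyte markers summed to 1.21 CPM in Cre members and were all at 0 in control members. In the Cre library the lamina propria markers summed to 3805 CPM in members and 1597 CPM in the other cells. The adventitial and trophocyte markers summed to 863 against 2248 CPM, the PDGFRA-high markers to 507 against 449 CPM and 4 pericyte markers to 176 against 95.9 CPM. Tnc was at 97.8 CPM in Cre members, and between 2.02 and 647 CPM in the other Cre cells by cluster.

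Contractile cells made up a part of the members that the name does not cover. At least 3 of 6 smooth muscle markers were found in 13 of 74 Cre members (17.6%), against 1.72% of the other Cre cells, and in 110 of 792 control members (13.9%), against 6.38% of the other control cells. Smooth muscle cells below the collagen threshold carried Agt in 68.5% of 108 Cre cells and 53.6% of 220 control cells, and Tcim in 37.0% and 39.1%. The shares, the list medians and the named genes were also taken without the contractile cells, which left 61 Cre members and 682 control members, and what turned sign is given with each comparison.

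Clustering of the collagen-positive cells of both libraries without the 7 rule genes, the collagens of the rule or interferon and MHC genes placed the members in several of 16 clusters. Cluster 12, led by Nrg1, Col6a5, Ereg, Lef1 and Nxf7, held 6 Cre cells, all of them members, and 419 control cells, of which 378 (90.2%) were members. It took in 8.11% of the Cre members and 47.7% of the control members. Cluster 1, led by Hapln1, Stmn2 and Aldh3a1, held 5 Cre members (6.76%) and 228 control members (28.8%). Most Cre members, 42 of 74 (56.8%), lay instead in cluster 2, led by Edil3 and Cxcl13, which was made up of 1408 Cre cells and 59 control cells and held 1 control member. Since nearly all of its cells came from 1 library, whether it is a kind of cell or a state of that library cannot be told apart.

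Most of the remaining members lay in clusters 10, 0 and 11. Cluster 10, led by the smooth muscle genes Myh11 and Actg2, held 13 Cre members and 96 control members. Cluster 0, led by the subepithelial genes Sox6 and Procr, held 2 Cre members and 74 control members, and cluster 11, led by Adamdec1, held 4 and 10. Cells that met the rule thus differed in their other genes. Of the 30 control cells nearest to a member, counted without the rule genes, the median share of members was 20% for Cre members and 73.3% for control members, against 0% for the other cells of both libraries.

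**Figure D2:**
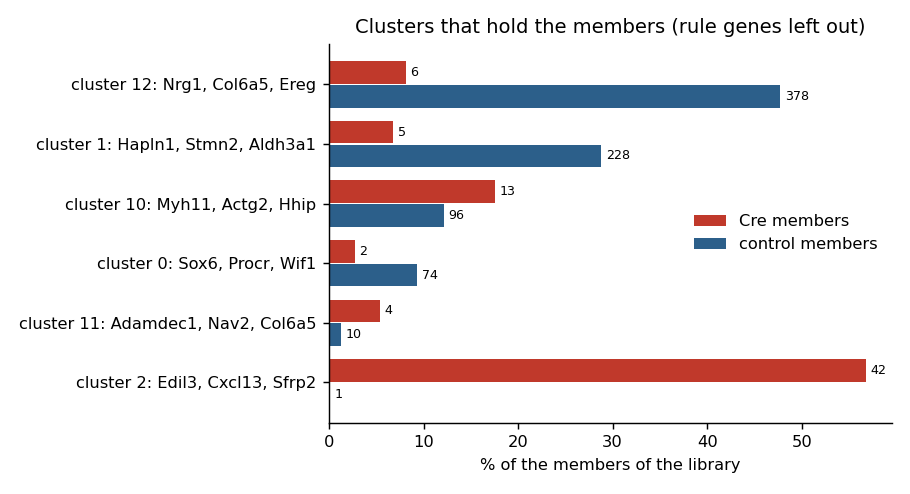
Share of the members of each library, in percent, that lay in each cluster holding at least 5 members, for the Cre library (upper bars) and the control library (lower bars), with the number of members at the bar's end and 3 leading genes beside the cluster's number. Cluster 12 held 378 control members and 6 Cre members, and cluster 2 held 42 Cre members and 1 control member.

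The rule genes reached different levels in these clusters. Control members of cluster 12 had 489.5 CPM of Cd36, those of cluster 1 had 230 CPM, those of cluster 0 had 45.4 CPM and those of the contractile cluster 10 had 15.005 CPM. Agt ran in another order, with 343 CPM in cluster 12, 102 in cluster 1, 499 in cluster 0 and 364 in cluster 10. Among these members Cd36 was thus higher in clusters 12 and 1 than in clusters 0 and 10, and Agt was lowest in cluster 1. The rule chose the cells on both genes, so these levels do not say which clusters a gene marks. The other control cells of cluster 1 had 17.8 CPM of Cd36 and 8.07 CPM of Agt. Among Cre members, the 6 cells of cluster 12 had 515 CPM of Cd36 and each of them had a UMI of Cd36 and of Tbxas1, while the 42 cells of cluster 2 had 16.3 CPM and 19.0% of them had a UMI of Cd36.

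Against the other collagen-positive control cells, control members had 221 of 9084 measured genes at least 2-fold higher (2.43%) and 217 at least 2-fold lower (2.39%). A gene counted as measured when its CPM averaged 10 or more over both groups. The median log2 ratio over all of them was 0.02. The members were chosen on their transcripts, so these differences describe them and carry no test. Among the genes eligible for naming, which leave out the rule genes, the 5 highest by log2 ratio were Ces1g, Lef1, Nxf7, Col6a5 and Nrg1, and the 5 lowest were Pi16, C1qtnf7, Ebf1, Il33 and Pcolce2.

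A pair of growth factors of the EGF family were among the 15 highest genes. Nrg1, which encodes neuregulin 1, a ligand of the ERBB receptors of the epithelium, was at 487 CPM in control members and 47.2 CPM in the other control cells, a ratio of 10.3 (9.84 to 10.8). Ereg, which encodes epiregulin, a ligand of the EGF receptor, was at 762 against 112 CPM, a ratio of 6.79 (6.56 to 7.03). The same order held in the Cre library, where Nrg1 was at 211 CPM in members and 16.3 CPM in the other cells and Ereg at 372 against 106 CPM. After thinning to 4000 UMIs, Nrg1 was found in 28.4% of Cre members and 3.92% of other Cre cells, and in 48.4% of control members and 8.03% of other control cells. Unthinned, those shares were 39.2% and 6.41% in the Cre library and 66.2% and 11.5% in the control library. Control members differed by cluster, with Nrg1 at 1104 CPM in cluster 0, 671 in cluster 12, 239 in cluster 10, 81.1 in cluster 1 and 0 in cluster 11. High levels were also not limited to members. The 41 other control cells of cluster 12 had 659 CPM of Nrg1 and 1169 CPM of Ereg, against 671 and 1052 CPM in its control members. Among 27 growth and neurotrophic factors measured, 6 passed 2-fold upward and 2 downward in control members, around a median log2 ratio of 0.12. Vegfa, the vascular growth factor, was at 145 against 69.9 CPM, while the alarmin Il33 was at 2.27 against 35.7 CPM.

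Genes of prostanoid synthesis were in part higher and in part lower. In the list of 10 measured genes, 5 passed 2-fold upward and 2 downward, and 1 of the 5, Tbxas1, is a rule gene whose level the choice of cells raised. The median log2 ratio was 0.70, and -0.14 with no CPM minimum. Ptgs2, which encodes the inducible cyclooxygenase COX-2, was at 1202 CPM in control members and 215 CPM in the other control cells, a ratio of 5.60 (5.46 to 5.75). Ptgs1, the constitutive cyclooxygenase, was at 208 against 70.5 CPM, and Ptges, the synthase of prostaglandin E2, at 303 against 144 CPM, a ratio of 2.10 (2.01 to 2.19). Ptgis, the prostacyclin synthase, was at 13.5 against 99.01 CPM, 7.34-fold lower (6.12 to 8.88), and Hpgd, which breaks prostaglandins down, at 23.7 against 81.2 CPM. In the Cre library Ptgis was at 12.1 CPM in members and 139.6 CPM in the other cells, and Ptges at 226 against 107 CPM. Within cluster 12, Ptgs2 was at 1547 CPM in control members and 1735 CPM in the 41 other control cells.

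Genes of lipid and metabolite sensing outside the rule were mostly within 2-fold. For lipid uptake and storage, 3 of 31 measured genes, Cd36 included, passed 2-fold upward and 1 downward around a median of 0.07, and of 20 genes of fatty acid oxidation none reached 2-fold in either direction, with a median of -0.02. Lpl, the lipoprotein lipase, was at 238 against 97.5 CPM, a ratio of 2.44 (2.32 to 2.57). Pparg, a regulator that turns on Cd36 in fat and in macrophages, was at 38.8 CPM in control members and 41.0 CPM in the other control cells. Hcar1, the lactate receptor and the relative of Hcar2, was at 23.8 against 10.5 CPM. In the renin-angiotensin list 2 of 9 measured genes passed 2-fold, Agt itself and the receptor gene Agtr1b at 29.0 against 7.18 CPM, a ratio of 4.04 (3.45 to 4.73).

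The aryl hydrocarbon receptor, a sensor of dietary and microbial ligands, and its targets formed the list with the highest median outside the rule genes. Of its 6 measured genes, Ahr, Aldh3a1 and Nqo1 passed 2-fold upward and none downward, and the median was 1.02. Ahr was at 114 against 31.7 CPM, a ratio of 3.59 (3.32 to 3.88). Aldh3a1, a target that detoxifies aldehydes, was at 96.1 against 23.9 CPM. In the Cre library, where members held 26 UMIs of Ahr and 16 of Aldh3a1, Ahr was at 31.4 CPM in members and 8.07 CPM in the other cells and Aldh3a1 at 19.3 against 1.64 CPM.

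Signals to the crypt did not move one way. Among 8 measured WNT ligands and R-spondins, 2 were at least 2-fold higher and 4 lower. Wnt4 was at 400 against 133 CPM, a ratio of 3.01 (2.89 to 3.13), and Wnt5b at 130 against 57.5 CPM, while Wnt2 was at 7.14 against 32.4 CPM. Lef1, a transcription factor that answers to WNT, was at 61.7 CPM in control members and 3.72 CPM in the other control cells, a ratio of 16.6 (14.1 to 19.5). Of 9 BMP ligands, Bmp2, at 316 against 143 CPM, and Bmp7, at 132 against 62.8 CPM, were at least 2-fold higher, and Bmp3 and Gdf10 were at least 2-fold lower. The BMP antagonist Grem1, made by trophocytes at the crypt base, was at 59.1 against 190.1 CPM, 3.22-fold lower (2.95 to 3.52). In the retinoid list Aldh1a3 was at 102 against 43.0 CPM and its relative Aldh1a2 at 4.42 against 40.7 CPM. These encode 2 enzymes of retinoic acid synthesis, of which the first was higher and the second lower in members. Without the contractile cells the BMP ligand median, 0.04, was -0.07. Within cluster 12, Lef1 was at 91.7 CPM in control members and 78.1 CPM in the 41 other control cells.

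Further genes at the top of the ranking had varied roles. The carboxylesterase Ces1g was at 33.9 against 1.05 CPM, a ratio of 32.3 (24.4 to 43.2), and the RNA export factor family member Nxf7 at 57.7 against 4.17 CPM. Col6a5, a chain of collagen VI, was at 88.8 against 7.02 CPM, and Plau, the urokinase plasminogen activator, at 253 against 45.2 CPM. C5ar1, the receptor of the complement fragment C5a, was at 24.1 against 1.62 CPM, with a UMI in 17.0% of control members. The scaffold gene Grip1 was at 98.7 against 14.6 CPM, the phosphatase gene Ptprr at 28.2 against 3.94 CPM and Cox4i2, an alternative subunit of cytochrome c oxidase, at 25.5 against 3.13 CPM. Otulinl, Tceal6 and Fam162b were also among the 15 highest, with ratios of 9.46, 7.07 and 5.99. Among 48 transcription factors of fibroblasts, 5 were at least 2-fold higher, 1 of them the rule gene Prdm1, and 6 were at least 2-fold lower.

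Among the 15 lowest genes were markers of other kinds of fibroblast. Pi16, a marker of adventitial fibroblasts, was at 38.4 CPM in control members and 543 CPM in the other control cells, 14.1-fold lower (12.7 to 15.8). In the Cre library it was at 51.9 CPM in members and 441 CPM in the other cells, and 1 cell held 35 of the 43 Pi16 UMIs of the Cre members. C3, the central complement protein, was at 75.1 against 699 CPM, 9.31-fold lower (8.62 to 10.1), and Ebf1, a transcription factor, at 22.6 against 281 CPM. The neuropeptide Y receptor Npy1r, a marker of submucosal-type fibroblasts, was at 1.93 against 30.4 CPM. The chemokine scavenger Ackr4, a marker of adventitial fibroblasts and trophocytes, was at 4.53 against 48.9 CPM. C1qtnf7, Pcolce2, Inmt, Cilp, Gsta3, Gpc3, Flrt2, Foxp2 and Fibin completed the 15 lowest with Il33, each between 9.41-fold and 24.01-fold lower.

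The choice of comparison cells changed part of this. When control members were set only against other control cells with at least 3 of 6 lamina propria markers, all 15 of the highest genes were still at least 2-fold higher, with log2 ratios between 2.13 and 4.401. Of the 15 lowest, 11 were still at least 2-fold lower. The other 4 were Ackr4 at -0.45, Pi16 at -0.71, Cilp at -0.71 and Ebf1 at -0.91.

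**Figure D3:**
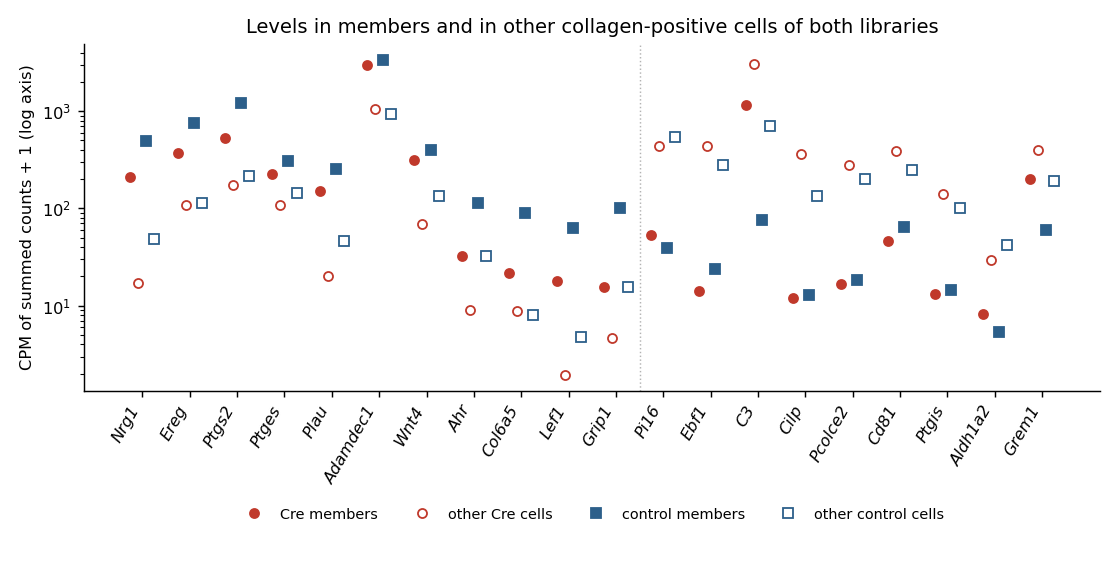
Level of 11 genes higher and 9 genes lower in control members than in other control cells, as CPM of summed counts plus 1 on a log axis, in Cre members, other Cre cells, control members and other control cells (filled marks for members, open marks for other cells). Nrg1 stood at 211, 16.3, 487 and 47.2 CPM in the 4 groups, and Ptgis at 12.1, 139.6, 13.5 and 99.01 CPM, so that filled marks lay above open marks of the same library on the left and below them on the right.

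Levels summed over the cells of each bin changed by degrees with the number of detected genes. In control cells with 0 to 6 rule genes detected, Nrg1 was at 16.6, 85.6, 160, 265, 569, 587 and 747 CPM, and Ptgs2 at 178, 243, 386, 884, 1227, 1418 and 1657 CPM. Pi16 ran the other way, at 743, 176, 55.2, 61.5, 43.7, 9.70 and 12.01 CPM. The contractile gene Acta2 did not follow either course and peaked at 3297 CPM in cells with 2 rule genes, against 139 CPM in those with 5. The mix of cells changed too, as cluster 12 held 0.0719% of control cells with 0 genes, 21.9% with 3 and 82.6% with 6. Cells with at least 3 smooth muscle markers were 33.2% of those with 2 genes and 3.21% with 5. A change within cells and a change in the mix cannot be told apart here. Median depth was also higher in the bins with more detected genes, at 6682 UMIs with 0 genes and 12228.5 with 6, and its part in the gradient was not tested. Against other control cells matched on depth, all 15 of the highest genes were still at least 2-fold higher, with log2 ratios between 2.27 and 4.01.

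**Figure D4:**
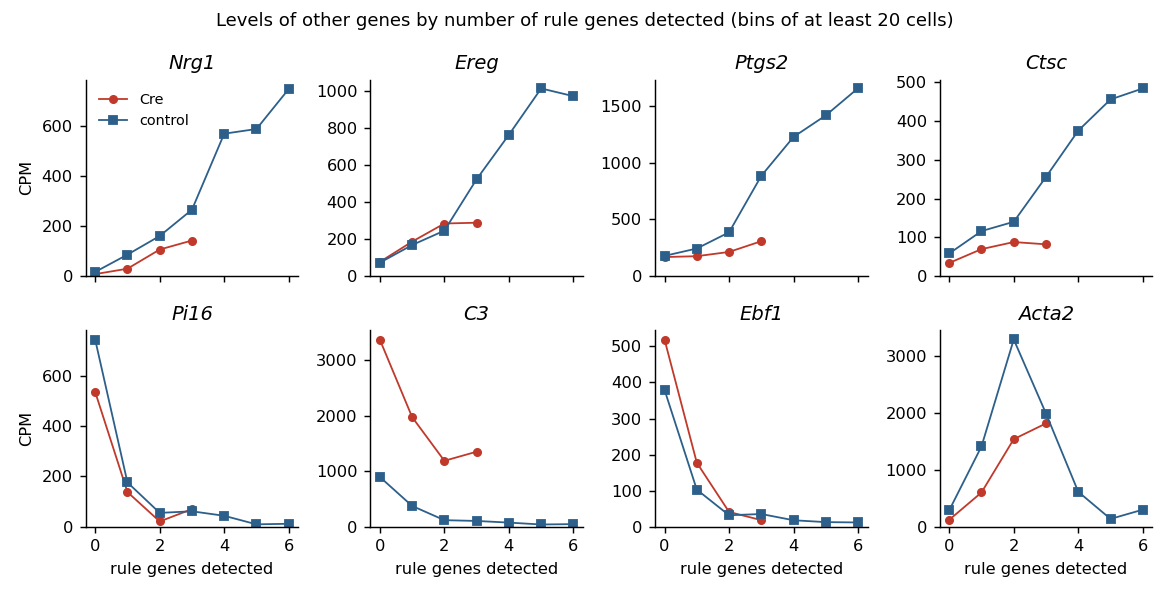
CPM of 8 genes outside the rule in collagen-positive cells grouped by the number of rule genes detected, in the Cre library (circles) and the control library (squares), for bins of at least 20 cells. In the control library Nrg1 reached 747 CPM at 6 detected genes, Pi16 stood at 12.01 CPM there, and Acta2 peaked at 2 detected genes.

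Cre members differed from control members most in interferon-response, MHC class I and complement genes. Of 1686 genes whose CPM averaged 100 or more, 52 were at least 2-fold higher in Cre members (3.08%) and 29 at least 2-fold lower (1.72%), with a median log2 ratio of -0.02. Cre members were only 74 cells, and 42 of them lay in a cluster with 1 control member, so genotype, library and the kind of cell cannot be told apart.

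MHC class I genes, which present peptides to CD8 T cells, were higher in Cre members. Of 14 measured, 12 passed 2-fold upward and none downward, and the median log2 ratio was 2.02. H2-Q6 was at 357 CPM in Cre members and 10.1 CPM in control members, a ratio of 35.4 (27.9 to 45.4), and H2-Q7 at 507 against 17.3 CPM. B2m, the light chain, was at 3702 against 756 CPM, a ratio of 4.89 (4.69 to 5.11), and H2-D1 at 3950 against 941 CPM. The difference was seen in each cluster that both libraries' members shared with at least 5 cells, as H2-K1 was at 1643 against 616 CPM in cluster 12, 2514 against 560.5 CPM in cluster 1 and 2308 against 273 CPM in cluster 10. In the other collagen-positive cells too, H2-K1 was at 2085 CPM in the Cre library and 411 CPM in the control library.

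Genes of the interferon gamma response, which include GTPases against intracellular microbes, had 7 of 11 measured genes past 2-fold upward and none downward, around a median of 2.54, which was 0.61 after thinning to 4000 UMIs. Iigp1, one of these GTPases, was at 672 CPM in Cre members and 73.4 CPM in control members, a ratio of 9.17 (8.17 to 10.3). Tgtp2 was at 189.55 against 18.4 CPM and Gbp6 at 227 against 28.7 CPM. Cxcl9, a chemokine that draws T cells, was at 421 against 28.9 CPM and had a UMI in 36.5% of Cre members and 4.67% of control members. One control member held 54.5% of the Cxcl9 UMIs of its group, and without it the control members were at 13.2 CPM. In the type I interferon list 3 of 6 measured genes passed 2-fold, Ifi27l2a and Bst2 among them, around a median of 0.93. In the other collagen-positive cells the same list had 20 of 39 measured genes at least 2-fold higher in the Cre library, where 1.88% of 9086 genes were so and 0.958% were at least 2-fold lower. The interferon gamma list had 18 of 22 measured genes at least 2-fold higher in those cells, around a median of 2.39, so it too ran beyond the members.

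Complement genes, which act in innate defence, were higher in Cre members than in control members. C3 was at 1161 CPM in Cre members and 75.1 CPM in control members, a ratio of 15.5 (14.002 to 17.1). Within the Cre library the other cells were higher still, at 3021 CPM. Cfb, factor B, was at 324 against 9.86 CPM between member groups. In all, 6 of 9 measured complement genes passed 2-fold, around a median of 1.40. Serpina3g, a protease inhibitor, was at 343 against 37.0 CPM and Lepr, the leptin receptor, at 241 against 27.4 CPM. Sntg1, which encodes a syntrophin, was at 273 against 12.8 CPM. Saa3, an acute-phase protein gene picked out after its values were seen, had the highest ratio of all, at 832 against 3.51 CPM, with a UMI in 17.6% of Cre members and 0.505% of control members.

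The genes lower in Cre members included several of those that marked the control members. Ptgs1 was at 76.1 CPM in Cre members and 208 CPM in control members, 2.73-fold lower (2.13 to 3.57), and Ptgs2 was at 534 against 1202 CPM. Stmn2 was at 132 against 465 CPM, and Tnc at 97.8 against 331 CPM, 3.38-fold lower (2.71 to 4.27). Nrg1, at 211 against 487 CPM, and Ereg, at 372 against 762 CPM, were also lower. Matrix and secreted factors followed, with the binding protein Igfbp6 at 165 against 523 CPM, Tgfbi at 115 against 321 CPM and Bmp2 at 113 against 316 CPM. S100a4, Tm4sf1, the protease Ctsc, the NF-kappaB inhibitor Tnfaip3 and the adhesion receptor Adgre5 were also among the 12 lowest, each between 2.75-fold and 3.57-fold lower.

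These lower genes rested on which cells were counted as members. Among members for which at least 50% of the 30 nearest control cells were members, 18 Cre cells and 512 control cells, all 12 of the highest genes were still at least 2-fold higher and only 4 of the 12 lowest still 2-fold lower, Tnfaip3, Tm4sf1 and Tnc among them. In that comparison Bmp2 had a log2 ratio of -0.33, S100a4 one of -0.50 and Ptgs1 one of -0.54. The other 8 of the 12 lowest did not pass 2-fold there. Within clusters the direction varied. In cluster 12 (6 Cre members), Nrg1 was at 687 against 671 CPM, Ptgs2 at 1655 against 1547 and Stmn2 at 613 against 440. Ereg was lower there, at 184 against 1052 CPM, as was Tnc, at 319 against 383. In cluster 1 (5 Cre members), Nrg1, Ereg and Tnc were higher, with Nrg1 at 202 against 81.1 CPM. Stmn2, at 224 against 800 CPM, and Ptgs2, at 292 against 693, were lower. In cluster 10 each of these genes was lower in Cre members.

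Contractile genes had a median log2 ratio of 0.45 over 14 measured genes between Cre and control members, which turned to -0.20 over 8 genes without the contractile cells. The medians of fatty acid oxidation, vasoactive receptors, retinoid genes and axon guidance, all between -0.09 and 0.11, turned sign as well. In that order they rested on only 1, 5, 4 and 6 measured genes, and on 2, 4, 4 and 6 without the contractile cells. Myh11 was at 758 CPM in Cre members and 405 CPM in control members, and at 5105 CPM in the 13 Cre members of cluster 10 against 3641 CPM in its 96 control members. Dissociation stress genes, such as Fos and Egr1, had none of 29 measured genes 2-fold apart, with a median of -0.25. Of 4 BMP antagonists measured, 1 passed 2-fold, around a median log2 ratio of -0.37, and of 2 secreted WNT antagonists 1 passed. These were Grem1, at 198 CPM in Cre members and 59.1 CPM in control members, a ratio of 3.35 (2.80 to 4.003), and Sfrp1, at 425 against 182 CPM. Both were also higher in the other cells of the Cre library, where Grem1 was at 397 CPM against 190.1 CPM in other control cells and Sfrp1 at 592 against 281 CPM.

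**Figure D5:**
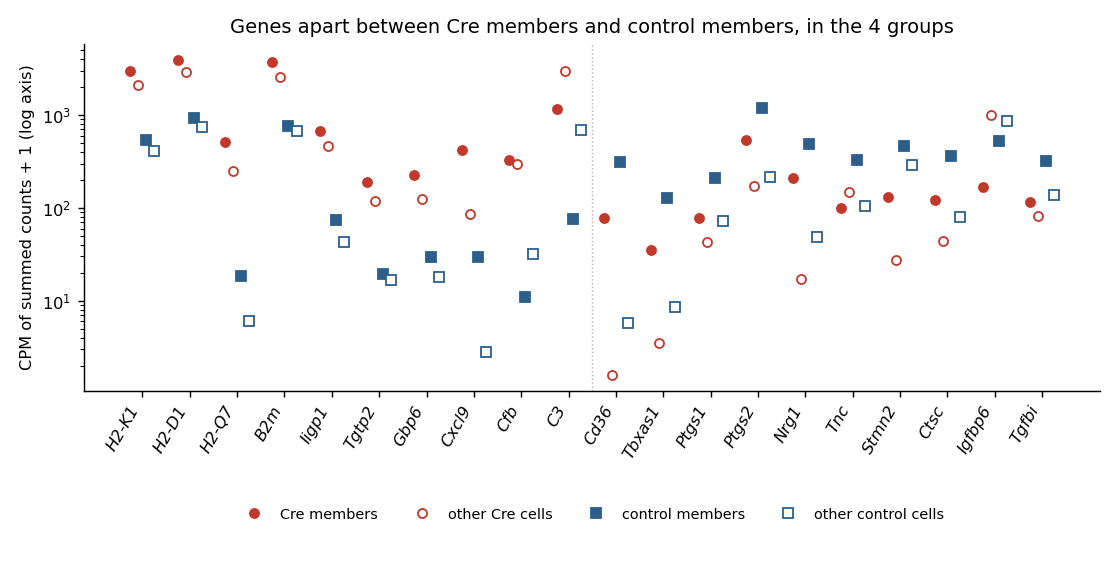
Level of 10 genes higher and 10 genes lower in Cre members than in control members, as CPM of summed counts plus 1 on a log axis, in Cre members, other Cre cells, control members and other control cells. H2-K1 stood at 2999 and 2085 CPM in both Cre groups and at 545 and 411 CPM in both control groups, while Cd36 stood at 77.3, 0.592, 315 and 4.80 CPM in the order given.

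Within the Cre library alone, members had 88 of 1638 genes at least 2-fold higher (5.37%) and 61 at least 2-fold lower (3.72%) than the other Cre cells. Nrg1 had the highest log2 ratio of the eligible genes there, with a ratio of 12.99, and Wnt4, at 311 against 67.7 CPM, and the bradykinin receptor Bdkrb2, at 189.55 against 38.7 CPM, were among the 12 highest. Rgs10 was at 503 against 111 CPM and the thrombin receptor F2r at 261 against 66.2 CPM. Myh11, Acta2, Myl9, Mylk and Tagln were in the same 12, beside the 17.6% of Cre members with smooth muscle markers. Without the contractile cells Myh11 was at 2.83 against 7.899 CPM, Tagln at 72.3 against 113 CPM and Acta2 at 194 against 146 CPM, while Nrg1 was at 241 against 15.2 CPM and Wnt4 at 366 against 68.0 CPM. Myl9 and Dmd turned to lower in members as well, and 77 genes were then at least 2-fold higher and 61 at least 2-fold lower. The lowest were Ebf1, at 13.3 against 436 CPM, Cilp, at 10.9 against 360 CPM, and Pcolce2, at 15.7 against 280 CPM. These 3 genes were also among the 15 lowest of the control comparison.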

How the data were processed

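Per the labels, 5' chemistry of 10x Genomics was used, so reads come from transcript starts. Deposited values are unnormalized UMI counts of 33696 features in each barcode. Software named by the submitters' processing notes is Cell Ranger 8.0.1, with GRCm39 as genome build. No per-sample column was left unused.

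The 7 genes, the gene lists and the other rules were chosen with earlier results of these data known. CPM came from UMI counts summed over the cells of a group, and log2 ratios were taken with 1 CPM added. Intervals are exact Poisson for sums, exact binomial for ratios of sums and Clopper-Pearson for shares, at 95%. With 1 library per genotype there was no test. Named genes were the 15 highest and 15 lowest ratios of the control comparison (at least 20 CPM in 1 group, 50 UMIs over both, a UMI in at least 10% of cells of the higher group), the 12 highest and 12 lowest between member groups (a mean of at least 100 CPM, a UMI in at least 20%), and in each of 33 lists the 2 highest, 2 lowest and 2 most abundant measured genes. Genes of a list named beside these, such as Pparg, Ptgs1, Il10rb and H2-K1, were chosen after values were seen. Ranked genes left out the rule genes, the 3 collagens, Pecam1, Gm-number, Rik and ENSMUSG names, and mitochondrial, ribosomal protein, antigen receptor, haemoglobin and sex-linked genes. Symbols that repeated (26 rows) were read from their first row.

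Scrublet (scanpy 1.11.5, 8% doublets assumed) marked 111 Cre and 393 control cells as doublets, 3 and 32 of them members. They were kept, as the rule does not remove them, and left out as an alternative. Clusters came from 2000 variable genes, 30 components, 15 neighbours and leidenalg 0.10.2 at resolution 1. The steps were tested on simulated counts. The alternatives changed the number of rule genes, the collagen minimum, the cell filter, the depth, the CPM minimum, the CPM added, the fold and the cells set against the members. Values of a few genes that the rule picked are not reported here.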

Additional observations from a re-analysis of the deposited data

Results flagged for a closer look

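Genes named above were examined for a member-to-other ratio of at least 1.5-fold in opposite directions in the libraries. Sntg1, a syntrophin gene, had a log2 ratio of 1.26 in the Cre library, at 273 CPM in members and 114 CPM in the other cells, and of -0.97 in the control library, at 12.8 against 26.0 CPM. With 1 library per genotype the difference between the libraries was not tested.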

How the results depend on the processing

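No paired analysis was possible because each genotype gave 1 library. The member share was lower in the Cre library under every alternative run, and its log2 ratio, -2.79 as reported, was -1.64 with at least 2 rule genes (5.45% Cre, 16.97% control), -3.88 with at least 4 (0.357%, 5.25%), -3.22 without Tcim (0.750%, 7.01%), -3.81 after thinning to 4000 UMIs (0.420%, 5.88%) and -4.20 for members with at least 50% member neighbours (0.322%, 5.92%). The control share was 8.32% with a collagen minimum of 5 UMIs, 11.4% with 20 and 8.48% without contractile cells. In the control comparison, the 221 higher and 217 lower genes became 141 and 138 with 10 CPM added, 95 and 69 with a mean of at least 50 CPM, 454 and 590 with no minimum, 502 and 436 at 1.5-fold and 76 and 110 at 3-fold. Between Cre and control members, the 52 higher and 29 lower genes became 108 and 68 after thinning, 30 and 14 with at least 200 CPM, 179 and 97 with at least 20 CPM, 104 and 102 at 1.5-fold and 27 and 8 at 3-fold. Of 971 values of list medians 940 stayed within 1.5-fold of the reported one, and 3 whose reported median was past 1.5-fold turned sign. These were the cell cycle list between Cre and control members after thinning (0.0711), the WNT ligand list of the control members with at least 50 CPM (0.64) and their prostanoid list with no minimum (-0.14). The last 2 follow from which genes were measured. The cause of the first, whose reported median was the ratio of 1 measured gene, was not tested. Of 816 values of named genes 329 lay outside the counting interval of the reported ratio and 0 turned sign. After thinning, 6 of the 12 genes lowest in Cre members were still 2-fold lower, and 7 with at least 4 rule genes. The removal of contractile cells and the choice of members by their neighbours were added after seeing the data. The 74 Cre members, with 828277 UMIs, limit precision, so genes were counted there only from 100 CPM on, and lower values printed for Cre members rest on few UMIs.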

Other observations

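After thinning to 4000 UMIs, at least 1 of the cell cycle genes examined was found in 8.11% of 74 Cre members (3.03 to 16.8) and 7.21% of 5184 other Cre cells, and in 5.83% of 772 control members (4.28 to 7.72) and 7.19% of 6937 other control cells. At least 3 of these genes were found in 0 Cre members and 0 other Cre cells, and in 2 control members (0.259%, 0.0314 to 0.933) and 2 other control cells (0.0288%). At full depth the shares were 20.3% and 15.5% in the Cre library and 13.01% and 12.03% in the control library.

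Without the collagen and Pecam1 parts of the rule, the same 7 genes gave 85 cells in the Cre library and 860 in the control library. These were 11 and 68 more than the members. Only 10 of the 85 and 21 of the 860 fell below the collagen threshold. Smooth muscle cells below the collagen threshold met the gene part of the rule in 4 of 108 Cre cells (3.70%) and 16 of 220 control cells (7.27%). None of these cells had Cd36 or Hcar2 in the Cre library. Mesothelial cells carried Tcim in 26.1% and Spock3 in 26.1% of 46 Cre cells, and none of them had 3 rule genes.

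The heat shock and immediate early genes that tissue dissociation raises were close to level between control members and the other control cells. Of 30 such genes none was 2-fold apart in the control library, with a median log2 ratio of 0.15, and Fos was at 6414 CPM in members and 6526 CPM in the other cells. Ier3 was the highest, at 942 against 516 CPM, and Atf3 the lowest, at 853 against 1455 CPM. In the Cre library 2 of 29 such genes (6.90%) were at least 2-fold lower in members and none higher, with a median of -0.21. Of all 1638 genes measured there, 3.72% were at least 2-fold lower.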
